A study of Mus musculus with 12 samples.

Results

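GPR174-deficient and wild-type follicular B cells were compared directly after sorting, before any culture. The comparison used 6 of the 12 RNA-seq libraries of the series, 3 from wild-type males (Gpr174+/Y, here WT) and 3 from males without the receptor (Gpr174-/Y, here KO). All 13269 genes of the 0 h count table entered it, of 13574 genes in the 0 h and 4 h tables together. The cells were splenic follicular B cells gated as CD21/35- CD23+ and were frozen without culture. In the KO allele, tdTomato replaces the single coding exon of Gpr174 in frame, and because the gene is X-linked the KO males carry no intact copy. The deletion is present in every cell of the mouse, so effects of GPR174 in other cells are part of the comparison. The remaining 6 libraries came from the same genotypes after 4 h in complete RPMI without an added stimulus, and are used here only to show the values of the genes called at 0 h after culture. Whether libraries of the same number at 0 h and 4 h came from the same mouse is not stated, so the cultured libraries may not be independent of the fresh ones.

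GPR174 is a G protein-coupled receptor for lysophosphatidylserine. It couples to Gs, which stimulates adenylyl cyclase, and the resulting cAMP activates protein kinase A and CREB-family transcription factors. Follicular B cells are resting, recirculating mature B cells of the spleen and lymph nodes. Few of them divide at any time, whereas germinal center B cells divide rapidly.

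Of the 55 genes called higher in KO cells (0.485% of tested genes), 16 were on a list of mitosis genes, the longest list used here. They were 20.3% of its 79 tested members. The share called was 20% of 30 tested germinal center genes and 25% of 8 tested granulocyte genes. Many mitosis genes carry the cell cycle homology region (CHR), often near CCAAT boxes bound by NF-Y. The CHR is a promoter element bound by the DREAM and MuvB complexes, which hold cell cycle genes down in resting cells. Promoter windows of RefSeq (GRCm38.p6, 250 bases before to 50 bases after a transcription start) were searched for the CHR letters TTTGAA and TTCAAA. The stretches around these letters in 6 mitosis genes called higher in KO are printed with the CHR in capitals, each read on the strand of the gene.
Cdk1 (chr10:69352910-69352939, minus strand, CHR starting 15 bases before the start): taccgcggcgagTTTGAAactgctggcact
Top2a (chr11:99024195-99024224, minus strand, 23 bases before): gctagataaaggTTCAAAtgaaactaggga
Mki67 (chr7:135716460-135716489, minus strand, 98 bases before): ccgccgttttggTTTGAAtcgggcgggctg
Kif11 (chr19:37376351-37376380, plus strand, 19 bases before): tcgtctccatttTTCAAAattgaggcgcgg
Cenpf (chr1:189688067-189688096, minus strand, beginning at transcribed base 3): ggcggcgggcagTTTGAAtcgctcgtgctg
Aspm (chr1:139454767-139454796, plus strand, beginning at transcribed base 7): ggaggcgcgataTTTGAAccgagcaaaagc

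The CHR letters were found in the windows of 13 of the 14 called mitosis genes that had one (Cenpe was the exception), and in 44 of 65 tested members of the mitosis list. They occurred in 20.2% of all 27025 genes with a window and in 14.5% of the 9070 tested genes with a window. Ccna2 and Esco2, the other called members, had no window in the table. A CCAAT box (CCAAT or ATTGG) was found in 12 of the 14 called mitosis genes and in 47 of 65 tested ones. It was in 41.1% of all genes with a window and in 43.4% of tested genes with a window. Among genes called higher in KO the CHR letters were present in 24 of 42 windows, and among genes called higher in WT in 5 of 48. The E2F letters (TTTGGCGC, TTTCCCGC, TTTCGCGC and their reverse complements) were found in 15 of 35 tested DNA replication genes. They were in 4.26% of tested genes with a window and in 2.12% of all windows. A window shows only that these letters are there, and the CCAAT and CHR matches of a gene could lie within a few bases of each other.

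Each library held 6898199 to 11618787 counted reads. The WT libraries were deeper (10140519 ± 1280583 reads, SD, n = 3) than the KO libraries (7468830 ± 585471, n = 3), and every WT total was above every KO total. The row Rn45s, a ribosomal RNA precursor, took 9.23% to 11.3% of the reads. CPM below means counts scaled to a common library size after TMM, an edgeR normalization with factors from 0.979 to 1.015 here. Spearman correlations of log2 CPM between libraries ran from 0.989 to 0.996, and no 2 libraries agreed within sampling noise. On the first principal component of the 500 most variable genes, 35.8% of the variance, the WT libraries lay at -15.5, -8.99 and -2.98 and the KO libraries at 9.29, 8.09 and 10.1. Follicular markers were high throughout: Fcer2a, which encodes the gate marker CD23, ranged from 1198 to 1511 CPM. Cr2, which encodes CD21/35, ranged from 841 to 1081 CPM although the gate was labelled CD21/35-.

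Gpr174 itself was counted at 144, 144 and 151 CPM in WT replicates 1 to 3 and at 71.2, 74.7 and 71.3 CPM in KO replicates 1 to 3. The groups did not overlap, and the KO level was near the WT level divided by 2 rather than at 0 (log2 fold change of WT over KO 1.02 ± 0.06 SE, edgeR adjusted p = 2.3e-07). Gene counts sum all exons of a gene, so reads from the replaced coding exon and from the rest of the transcript were not separated. The gene lies on chromosome X at 107255878 to 107296771 (GRCm38.p6). Of the 19 other genes of the table within 2 Mb of it, 15 passed the filter on low counts and none was called by edgeR. The smallest adjusted p among them was that of Hmgn5, a nucleosome-binding protein 1708 kb away, at 35.0, 35.5 and 44.0 CPM in WT and 28.8, 29.0 and 28.1 CPM in KO (log2 fold change 0.42 ± 0.11, adjusted p = 0.0886). P2ry10, a related lysophosphatidylserine receptor gene 151 kb away, had 185, 200 and 194 CPM in WT and 188, 190 and 182 CPM in KO, which overlap (0.04 ± 0.05, adjusted p = 0.795). On the whole X chromosome 4 of 359 tested genes were called (1.11%).

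Of 11345 genes tested, 112 passed an adjusted p under 0.05 (0.987%). WT was higher for 57 of them (0.502%) and KO for 55 (0.485%). Scaling by library totals alone split the calls into 37 for WT and 68 for KO, with a median log2 fold change over all genes of -0.03. At an unadjusted p under 0.05 there were 1442 genes. The 2 directions differed in size and in level. Genes called higher in KO had a median log2 fold change of -1.14 and 30 of them exceeded 2-fold, whereas genes called higher in WT had a median of 0.41 and 4 exceeded 2-fold. The median mean level was 15.5 CPM for the former, 146 CPM for the latter and 29.5 CPM over all tested genes. All 112 called genes had WT and KO libraries that did not overlap, which held for 18.1% of all tested genes, 9.41% with WT above and 8.73% with KO above.

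**Figure D1:**
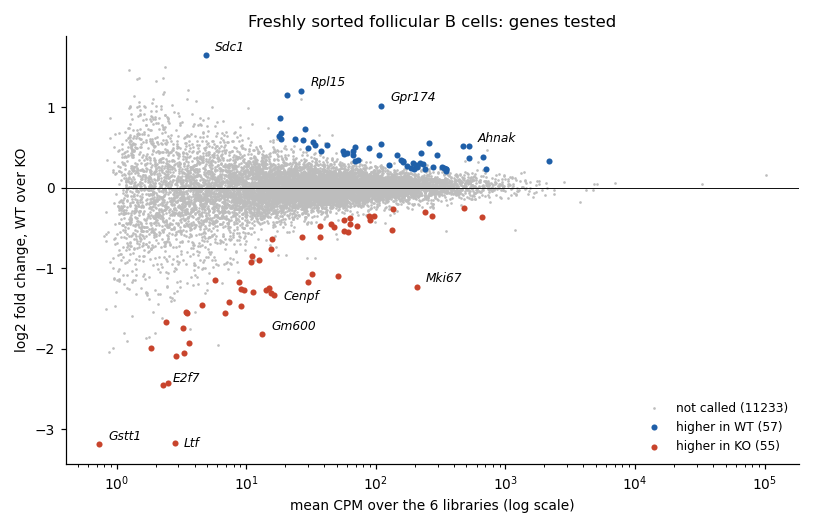
Log2 fold change of WT over KO (vertical axis) against mean CPM over the 6 freshly sorted libraries (horizontal log axis) for every tested gene, with 57 genes called higher in WT in blue, 55 called higher in KO in red and 11233 not called in grey. Most red points lie at low CPM with large differences, and most blue points at higher CPM with small ones.

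The calls depended on single libraries. Leaving out KO replicate 1 left 26 called genes, leaving out WT replicate 2 left 50, KO replicate 3 left 55, WT replicate 3 left 59 and KO replicate 2 left 90, whereas leaving out WT replicate 1 gave 161. Of the 112 genes, 23 were called in each of the 6 fits that left out a library, of which 12 were WT-higher and 11 KO-higher, and none changed sign in any of the 16 alternatives. Thinning every library to the smallest total gave 91 calls, with WT the higher group for 46 and KO for 45. The genes called higher in WT had a median transcript GC content of 45.2% and those called higher in KO 48.1%, against 49.4% over tested genes, and the part of base composition in the calls was not tested.

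Genes of mitosis, the longest list, formed the largest group by number. Of 87 genes on the G2/M and mitosis list, 79 passed the filter on low counts, 16 of these were called higher in KO and none higher in WT, against 0.485% of all genes called higher in KO. The median log2 fold change of the 79 was -0.66, against 0.00 over all genes, 73 had the KO sign, and 41 had KO libraries all above the WT libraries (8.73% of all genes). Summed over the list, the level was 1749, 1883 and 1909 CPM in WT and 2366, 2155 and 2593 CPM in KO. In bulk RNA, more dividing cells and more of these transcripts per dividing cell cannot be told apart.

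**Figure D2:**
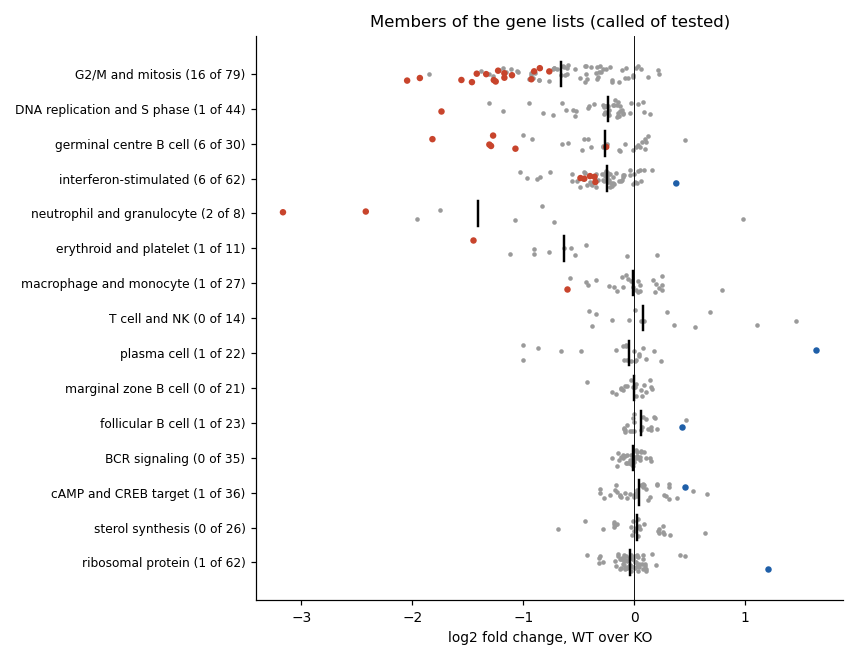
Log2 fold change of WT over KO (horizontal axis) of each tested member of 15 gene lists (rows, with the number called of the number tested), called members in red (higher in KO) or blue (higher in WT), others in grey, and the list median as a black bar. The mitosis list has its median at -0.66 and 16 called members, all to the left of 0.

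Cenpf, a kinetochore protein made in G2 and mitosis, had the smallest p of the list. It was counted at 9.54, 8.22 and 10.2 CPM in WT and 21.5, 23.1 and 26.4 CPM in KO. Every KO library held over 2 times the highest WT value (2.52-fold higher in KO, log2 fold change -1.33 ± 0.15, adjusted p = 0.000342). Mki67, the proliferation marker Ki-67, was the most abundant of the called genes at 88.5, 134 and 148 CPM in WT and 291, 239 and 339 CPM in KO. WT replicate 1 was lowest and KO replicate 3 highest, with no overlap (2.34-fold, -1.23 ± 0.14, adjusted p = 0.000342). Cenpe, a kinetochore motor, was at 15.7, 17.8 and 21.2 CPM in WT and 43.2, 33.9 and 46.5 CPM in KO, and the groups were again apart (2.25-fold, -1.17 ± 0.14, adjusted p = 0.000342).

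Ccna2, the cyclin of S phase and G2, was at 4.23, 4.76 and 5.60 CPM in WT and 13.0, 11.4 and 16 CPM in KO (2.75-fold, log2 fold change -1.46 ± 0.21, adjusted p = 0.00172). The spindle pole gene Aspm was at 6.72, 7.57 and 10.6 CPM in WT and 19.0, 21.1 and 20.4 CPM in KO (2.40-fold, -1.27 ± 0.17, adjusted p = 0.0015). For both genes the KO libraries lay well above the WT range. Top2a, the topoisomerase that untangles chromosomes, was at 23.8, 35.2 and 38.5 CPM in WT and 73.1, 50.0 and 86.8 CPM in KO (2.15-fold, -1.10 ± 0.17, adjusted p = 0.00499), with KO replicate 2 nearest to WT. These 6 genes stayed called in each of the 6 fits that left out a library.

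The largest fold changes of the group were at low counts. Esco2, a cohesin acetyltransferase, was at 1.08, 1.30 and 1.46 CPM in WT and 3.68, 5.19 and 7.29 CPM in KO (4.13-fold, log2 fold change -2.05 ± 0.36, adjusted p = 0.0108). Cdk1, the kinase that drives entry into mitosis, was at 0.650, 1.19 and 2.50 CPM in WT and 5.27, 4.76 and 7.16 CPM in KO (3.81-fold, -1.93 ± 0.40, adjusted p = 0.029). Both sets of libraries were apart, and Esco2 was called in 5 and Cdk1 in 3 of the 6 fits that left out a library. The number of list members called was 8 without KO replicate 1, 8 without KO replicate 3, 10 without WT replicate 2, 12 without WT replicate 3, 13 without KO replicate 2 and 15 without WT replicate 1. The 63 members not called ranged up to a log2 fold change of 0.23.

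Genes of DNA replication shifted toward KO by less than those of mitosis. Of 44 S phase genes, all tested, 1 was called higher in KO (0.485% of all genes). The median log2 fold change of the 44 was -0.23, against 0.00 over all genes. The KO sign held for 40 of them, and 18 had KO libraries all above WT (8.73% of all genes). Summed over the 44, the level was 1416, 1442 and 1489 CPM in WT and 1605, 1569 and 1681 CPM in KO. The called gene was Mcm10, which helps to start replication forks, at 1.08, 1.73 and 1.64 CPM in WT and 4.54, 4.04 and 6.50 CPM in KO (3.35-fold, -1.75 ± 0.34, adjusted p = 0.0223). Its libraries did not overlap, and without KO replicate 1, KO replicate 3, WT replicate 2 or WT replicate 3 no S phase gene was called, whereas 2 were called without WT replicate 1 and 4 without KO replicate 2.

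Among the 12 genes with the largest differences toward KO, 3 more have known roles in the cell cycle. E2f7, an atypical E2F that represses S phase genes, was at 0.542, 0.757 and 0.775 CPM in WT and 4.29, 3.60 and 3.71 CPM in KO (5.48-fold, log2 fold change -2.45 ± 0.38, adjusted p = 0.00495). Nek2, a centrosome kinase, was at 1.84, 4.76 and 3.70 CPM in WT and 7.97, 10.5 and 12.1 CPM in KO (2.94-fold, -1.56 ± 0.29, adjusted p = 0.0155). Hist1h2bm, a replication-dependent histone gene with near-identical copies that reads may be split among, was at 0.976, 1.73 and 0.775 CPM in WT and 3.43, 3.60 and 3.98 CPM in KO (-1.67 ± 0.38, adjusted p = 0.0488). In each of these genes the lowest KO library was above the highest WT library, and their calls held in 5, 4 and 1 of the 6 fits without a library.

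Genes of germinal center B cells came next. Of 30 tested members of that list, 6 were called higher in KO (0.485% of all genes) and none higher in WT (0.502%). The 6 include Cd38, which mouse germinal center B cells lower. The median log2 fold change was -0.26, with 21 of the KO sign and 11 with all KO libraries above WT (8.73% of all genes). The mean log2 CPM of the list was 4.70, 4.98 and 5.11 in WT and 5.36, 5.19 and 5.50 in KO. WT replicate 1 was lowest, and the WT and KO values did not overlap. The summed level, which follows the few abundant members that other B cells also express, did overlap, at 3958, 4565 and 4599 CPM in WT and 4432, 4236 and 4605 CPM in KO.

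Gm600, named Nuggc by RefSeq, encodes a nuclear GTPase of germinal center B cells, and was at 4.34, 5.62 and 7.49 CPM in WT and 20.7, 14.4 and 27.0 CPM in KO (3.53-fold, log2 fold change -1.82 ± 0.23, adjusted p = 0.00079). S1pr2, a sphingosine receptor that confines B cells to the germinal center, was at 4.23, 5.62 and 7.06 CPM in WT and 14.1, 12 and 15.1 CPM in KO (2.41-fold, -1.27 ± 0.21, adjusted p = 0.00685). For both genes every KO library was above every WT library.

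Basp1, a membrane protein gene, was at 3.58, 6.6 and 9.13 CPM in WT and 14.3, 15.9 and 17.8 CPM in KO (2.44-fold, -1.29 ± 0.24, adjusted p = 0.0179). Mybl1, a MYB-family transcription factor of dividing germinal center cells, was at 13.0, 26.5 and 22.9 CPM in WT and 40.8, 33.2 and 57.3 CPM in KO (2.10-fold, -1.07 ± 0.21, adjusted p = 0.0219). In both, WT replicate 1 was the lowest library. Cd38, an ectoenzyme that resting follicular B cells also carry and that mouse germinal center B cells lower, was at 457, 414 and 430 CPM in WT and 529, 491 and 529 CPM in KO (1.19-fold, -0.25 ± 0.05, adjusted p = 0.029). It had the direction of the other 5, although germinal center B cells lower it. Gm600 was called in all 6 fits that left out a library and the number of the list called was 1 without KO replicate 1, 2 without KO replicate 3, 3 without WT replicate 2, 5 without WT replicate 1, 5 without WT replicate 3 and 6 without KO replicate 2.

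**Figure D3:**
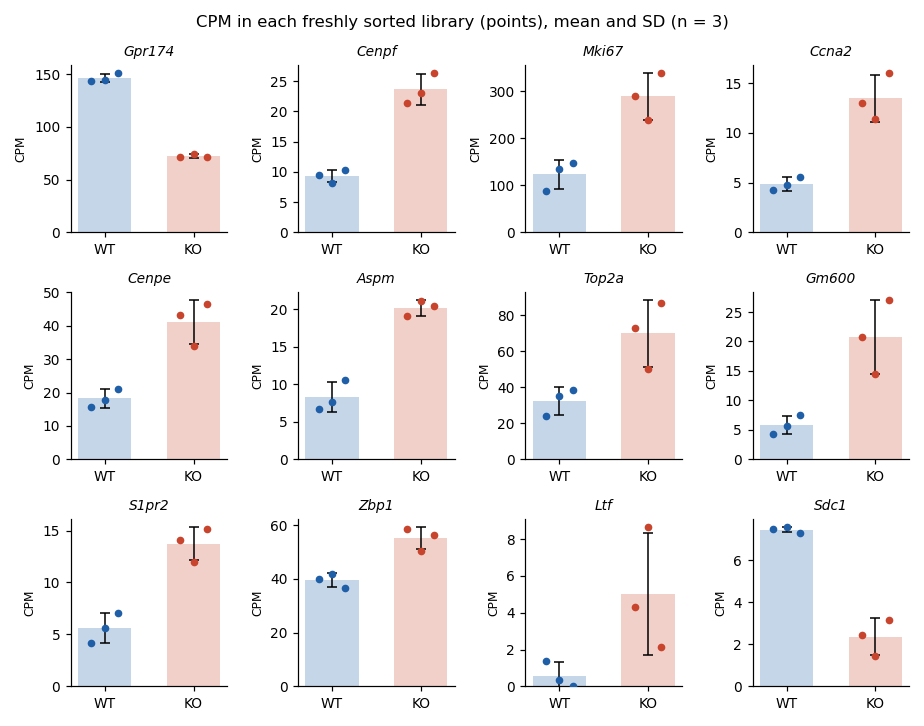
CPM (vertical axes, from 0) of 12 genes in each freshly sorted library, with points for replicates 1 to 3 from left to right, bars for the mean and error bars for the SD (n = 3), WT in blue and KO in red. Gpr174 and Sdc1 are higher in WT, the other genes higher in KO, and no gene shown has overlapping groups.

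Interferon-stimulated genes showed a small shift. Of 62 tested, 5 were called higher in KO (0.485% of all genes) and 1 higher in WT (0.502%). The median log2 fold change was -0.24, with 54 of the KO sign and 26 with all KO libraries above WT (8.73% of all genes). The mean log2 CPM of the list was 5.50, 5.34 and 5.38 in WT and 5.69, 5.60 and 5.74 in KO, whereas the summed level overlapped at 8657, 8034 and 7994 CPM in WT and 8643, 8436 and 8869 CPM in KO. The ISRE core letters (GAAA, any 2 bases, GAAA, on either strand) were found in 26 of 44 tested members with a promoter window. They were in 3.77% of tested genes with a window and in 3.99% of all windows. The stretch in the promoter of Igtp is shown because it was the called member with these letters in its window, in capitals.
Igtp (chr11:58199512-58199541, plus strand, 34 bases before the start, GRCm38.p6): tctaggaactGAAACTGAAAgctgttcggg

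Zbp1, a nucleic acid sensor, was at 39.9, 42.0 and 36.8 CPM in WT and 58.5, 50.5 and 56.5 CPM in KO (1.40-fold, log2 fold change -0.48 ± 0.09, adjusted p = 0.0165). Its groups did not overlap. Igtp and Ifi47, GTPases of the immunity-related family, were at 34.0, 39.2 and 41.4 and at 81.7, 68.1 and 81.9 CPM in WT, and at 54.1, 47.4 and 55.3 and at 106, 88.1 and 112 CPM in KO. Their log2 fold changes were -0.45 ± 0.10 (adjusted p = 0.0381) and -0.40 ± 0.09 (adjusted p = 0.0493). Ly6a, the surface protein Sca-1, was at 265, 221 and 232 CPM in WT and 303, 278 and 333 CPM in KO (-0.35 ± 0.07, adjusted p = 0.0299).

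Among the called members of this list, the exception was Samd9l, an antiviral and growth-restraining protein. It was at 751, 771 and 756 CPM in WT and 586, 621 and 544 CPM in KO (1.30-fold higher in WT, log2 fold change 0.38 ± 0.05, adjusted p = 0.00112), with the groups far apart, and it was called in all 6 fits without a library. The 5 genes higher in KO were called in 1 to 3 of those fits each. None of the list was called higher in KO without KO replicate 1 or without WT replicate 3, 1 without WT replicate 2, 2 without KO replicate 3, 7 without KO replicate 2 and 9 without WT replicate 1. With the 4 h libraries in the same fit none was called, and 3 were called after thinning.

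Transcripts of other blood cells were present, at low levels for granulocyte genes and at higher levels for red cell genes, and differed between libraries. Of 19 granulocyte genes, 12 were in the table and 8 were tested, with 2 called higher in KO (0.485% of all genes). The median log2 fold change of the 8 was -1.41, and 7 had the KO sign. Ltf, the neutrophil granule protein lactoferrin, was at 1.41, 0.324 and 0 CPM in WT and 4.29, 8.65 and 2.12 CPM in KO (-3.17 ± 0.69, adjusted p = 0.0381). Camp, a granule antimicrobial peptide, was at 1.30, 0.757 and 0.344 CPM in WT and 5.15, 5.91 and 1.59 CPM in KO (-2.42 ± 0.52, adjusted p = 0.0378). Both genes were highest in KO replicate 2 and lowest in WT replicate 3, their groups did not overlap, and each was called in 2 of the 6 fits that left out a library. The more abundant members S100a9 and S100a8 overlapped, from 11.02 to 30.4 and 6.89 to 18.1 CPM in WT and from 20.02 to 65.3 and 12.5 to 33.0 CPM in KO (adjusted p = 0.155 and 0.246). The summed list was at 66.7, 49.5 and 24.97 CPM in WT and 99.3, 152 and 48.1 CPM in KO, and Ly6g, a defining neutrophil gene, was not a row of the table.

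Erythroid and platelet genes showed a like pattern, with 11 tested, 10 of the KO sign and a median log2 fold change of -0.63. Of the 11, 1 was called higher in KO (0.485% of all genes). Spnb1, the erythroid spectrin gene that RefSeq names Sptb, was the called member at 3.14, 2.05 and 2.07 CPM in WT and 6.50, 9.08 and 4.38 CPM in KO (-1.46 ± 0.32, adjusted p = 0.0406). Its groups were apart and its call held in 2 of the 6 fits without a library. Beta-s, a beta-globin gene with near-identical copies, overlapped at 937, 782 and 1197 CPM in WT and 1355, 2167 and 692 CPM in KO (adjusted p = 0.395). The summed list was highest in KO replicate 2 (2567 CPM) and lowest in KO replicate 3 (872 CPM). In WT the sums were 1154, 947 and 1443 CPM.

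Other cell types gave little difference. The macrophage list had 1 of 27 tested members called (0.987% of all genes). Its summed levels overlapped, at 457 to 489 CPM in WT and 476 to 505 CPM in KO. The called gene was Mpeg1, a pore-forming protein that follicular B cells also express, at 19.7, 20.5 and 23.4 CPM in WT and 30.2, 31.1 and 36.1 CPM in KO (1.52-fold, log2 fold change -0.61 ± 0.12, adjusted p = 0.0219). Its groups did not overlap, whereas Apoe overlapped at 90.6 to 96.5 CPM in WT and 94.7 to 103 CPM in KO. Of 14 T cell and NK genes tested, 7 dendritic cell genes and 3 stromal genes none was called by edgeR at an adjusted p under 0.05. Lck, a T cell kinase also present in some B cells, ranged from 17.8 to 23.5 CPM in WT and 22.9 to 26.5 CPM in KO. The part of other cell types in the differences above was not tested.

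**Figure D4:**
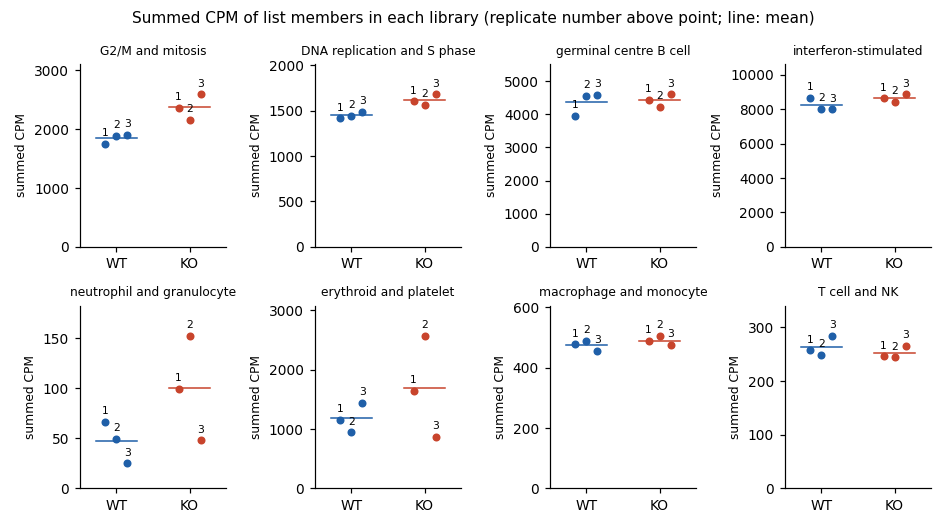
Summed CPM (vertical axes, from 0) of 8 gene lists in each freshly sorted library, with the replicate number above each point and a line at the mean (n = 3 per genotype). The mitosis and S phase lists are higher in every KO library than in any WT library, and in the granulocyte and erythroid lists KO replicate 2 is highest and KO replicate 3 lies within or below the WT range.

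Few markers of other B cell subsets were called. None of 21 tested marginal zone genes and none of 35 B cell receptor signaling genes was called, with medians of 0.00 and -0.01. Cr2 was at 996, 1016 and 1081 CPM in WT and 926, 1027 and 841 CPM in KO, which overlap (log2 fold change 0.15 ± 0.06, adjusted p = 0.314). S1pr1, which guides egress, ranged from 262 to 323 CPM in WT and 250 to 277 CPM in KO (adjusted p = 0.587). Of 23 follicular B cell genes, 1 was called, and Fcer2a, at 1511, 1428 and 1491 CPM in WT and 1272, 1411 and 1198 CPM in KO, did not overlap but was not called (0.19 ± 0.05, adjusted p = 0.105). Genes of the transitional and immature list leaned toward WT, with a median of 0.25. Of the 10 tested, 8 had the WT sign and 4 had all WT libraries above KO (9.41% of all genes). The summed list was at 1317, 1189 and 1187 CPM in WT and 1101, 1163 and 1057 CPM in KO, without overlap. Its mean log2 CPM did overlap, at 5.44, 5.13 and 5.24 in WT and 5.145, 5.05 and 5.08 in KO. Plasma, transitional and B1 cell lists had 1 called member each, of 22, 10 and 23 tested. Over all tested genes, 0.987% were called.

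The called genes of those lists were higher in WT. Sdc1, which encodes the plasma cell surface proteoglycan syndecan-1, had the largest difference toward WT at 7.48, 7.57 and 7.32 CPM in WT and 2.45, 1.44 and 3.18 CPM in KO (3.12-fold higher in WT, log2 fold change 1.64 ± 0.28, adjusted p = 0.0101). Its groups were far apart, and the call was lost in 1 of the 6 fits without a library. Irf4, a more abundant plasma cell regulator, was at 330 to 356 CPM in WT and 319 to 328 CPM in KO and was not called (adjusted p = 0.547). Of the 22 tested plasma cell genes, 13 had the KO sign and 9 the WT sign, with a median log2 fold change of -0.05. Igj, among those 13, overlapped at 10.3, 32.65 and 19.46 CPM in WT and 37.89, 26.1 and 49.32 CPM in KO (-0.87 ± 0.28, adjusted p = 0.173). Klf2, a Krüppel-like factor that holds follicular B cells in quiescence and in circulation, was at 256, 255 and 259 CPM in WT and 195, 190 and 187 CPM in KO (1.35-fold higher in WT, 0.43 ± 0.05, adjusted p = 0.000342). Klf2 varied little within a genotype, with SDs of 1.89 CPM in WT and 3.99 CPM in KO.

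Ahnak, a large scaffold protein gene on the B1 list, was at 569, 613 and 661 CPM in WT and 430, 457 and 405 CPM in KO (1.43-fold, log2 fold change 0.51 ± 0.06, adjusted p = 0.000342). Cd24a, a surface glycoprotein high on immature B cells, was at 648, 560 and 565 CPM in WT and 454, 501 and 416 CPM in KO (1.29-fold, 0.37 ± 0.07, adjusted p = 0.0138). Neither gene had overlapping groups. Klf2 and Ahnak stayed called in each of the 6 fits that left out a library, and Cd24a in 4.

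Genes on none of the lists made up 47 of the 57 called higher in WT and 22 of the 55 called higher in KO. The share of all tested genes on a list was not counted, and the lists were chosen with earlier results of these data known. These counts therefore describe the lists and not the genes. After Sdc1, Rpl15 had the next difference, at 44.3, 31.2 and 35.3 CPM in WT and 15.3, 18.3 and 14.5 CPM in KO (2.31-fold, log2 fold change 1.21 ± 0.14, adjusted p = 0.000342). It encodes a ribosomal protein with near-identical processed copies that reads may be split among, and the other 61 tested ribosomal protein genes were not called, with a list median of -0.03. Eps8l1, an actin regulator, was at 24.9, 17.1 and 43.1 CPM in WT and 14.2, 11.8 and 12.5 CPM in KO (1.15 ± 0.25, adjusted p = 0.0369). WT replicate 3 of Eps8l1 stood above the other WT libraries, and its call held in 2 of the 6 fits without a library.

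Frat2, which binds GSK3 in Wnt signaling, was at 38.2, 34.7 and 33.6 CPM in WT and 21.8, 23.5 and 19.1 CPM in KO (1.65-fold, log2 fold change 0.72 ± 0.11, adjusted p = 0.00504) and was called in all 6 of those fits. Bmf, a proapoptotic BH3-only protein, was the 1 called gene of 19 tested in the BCL2 family (0.987% of all genes). It was at 26.8, 28.3 and 30.9 CPM in WT and 20.5, 19.6 and 16.7 CPM in KO (1.52-fold, 0.60 ± 0.12, adjusted p = 0.0287). Clec12a, an inhibitory lectin, was at 19.5, 22.8 and 24.5 CPM in WT and 15.2, 14.1 and 14.6 CPM in KO (1.52-fold, 0.61 ± 0.14, adjusted p = 0.0429). None of the 3 had overlapping groups, and Bmf and Clec12a were each called in 1 of the 6 fits. The rest of the 12 largest differences toward WT, Ccdc21 (Cep85 in RefSeq), Tex2, Rdh14, 8430410K20Rik and C230091D08Rik, had log2 fold changes of 0.57 to 0.86 and were called in 1 or 2 of the 6 fits.

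Of the 12 largest differences toward KO, 3 have no place in the groups above. Gstt1, a glutathione transferase, had 1, 2 and 1 reads in WT and 10, 10 and 10 reads in KO, a ratio of summed and scaled counts of 9.97 (95% exact interval 3.51 to 39.0, counting error only). Tox, a nuclear HMG-box factor of lymphocytes, was at 0.759, 1.19 and 1.29 CPM in WT and 5.4, 1.87 and 6.63 CPM in KO (log2 fold change -2.08 ± 0.44, adjusted p = 0.0354). Tns1, a focal adhesion protein, was at 0.759, 0.865 and 0.603 CPM in WT and 3.43, 3.89 and 1.59 CPM in KO (-1.99 ± 0.45, adjusted p = 0.047). Groups did not overlap, but Tox was lowest within KO in replicate 2 and Tns1 in replicate 3, and the calls held in 0, 1 and 1 of the 6 fits without a library for Gstt1, Tox and Tns1.

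Genes of the cAMP pathway differed little before culture. Of 36 tested cAMP and CREB target genes 1 was called, with a list median log2 fold change of 0.04. Of 36 genes of Gs, adenylyl cyclase and protein kinase A 1 was called, with a median of 0.06. Over all tested genes, 0.987% were called. Cited2, a CBP-binding coactivator partner, was the called target at 46.4, 41.1 and 42.6 CPM in WT and 30.5, 33.9 and 30.2 CPM in KO (1.38-fold higher in WT, 0.46 ± 0.10, adjusted p = 0.0331). Atf1, a CREB-family transcription factor, was at 124, 131 and 134 CPM in WT and 93.3, 106 and 67.2 CPM in KO (1.46-fold, 0.54 ± 0.11, adjusted p = 0.0286). Both had groups apart, with KO replicate 3 of Atf1 the lowest, and they were called in 1 and 3 of the 6 fits without a library. The full CRE letters (TGACGTCA) were found in 2 of 24 tested targets with a window, and Cited2 had none. They were in 3.74% of tested genes with a window and in 2.03% of all windows.

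Among 21 tested genes that the study names for their behavior in culture, Gpr174 was the called one, and the list was chosen by the study partly on these samples. Cd86, the costimulatory ligand B7-2, was at 37.7, 26.5 and 31.5 CPM in WT and 38.6, 39.9 and 39.6 CPM in KO (log2 fold change -0.30 ± 0.12, adjusted p = 0.274). Its groups were apart, but WT replicate 1 was close to KO. Crem, a CREB-family repressor induced by cAMP, overlapped at 18.6, 13.5 and 15.9 CPM in WT and 16.4, 19.9 and 16.2 CPM in KO (-0.12 ± 0.15, adjusted p = 0.797). Pde3b, a cAMP-degrading phosphodiesterase, also overlapped, at 41.0 to 51.2 CPM in WT and 34.7 to 42.8 CPM in KO (0.29 ± 0.11, adjusted p = 0.255). Neither did Ccr7, the chemokine receptor for T zone chemokines, pass, at 156 to 184 CPM in WT and 138 to 156 CPM in KO (0.20 ± 0.07, adjusted p = 0.207).

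Immediate early and stress genes, which rise when cells are handled, had 2 of 42 tested members called (0.987% of all genes) and a median of 0.08. Klf2 was higher in WT and Cd83 higher in KO. Cd83, a surface protein of activated B cells, was at 202, 201 and 240 CPM in WT and 266, 260 and 269 CPM in KO (1.24-fold, log2 fold change -0.31 ± 0.07, adjusted p = 0.0356). The groups did not overlap, and the call held in 1 of the 6 fits without a library. None of 26 sterol synthesis genes was called (0.987% of all genes). Of 24 tested lysophospholipid and Gs-coupled receptors, Gpr174, the deleted gene, was called higher in WT (0.502% of all genes). S1pr2, also on the germinal center list, was called higher in KO (0.485%).

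The genes called at 0 h were then read in the 6 cultured libraries, which by the study's count of mice are not independent of the fresh ones. Of 107 tested there, 63 kept their sign and 44 had the opposite sign, and 32 were called at 4 h (10.9% of all genes, 5.22% higher in WT and 5.67% higher in KO), 16 in each direction relative to 0 h. Of 50 genes called higher in KO, 41 kept the sign, with a median log2 fold change of -0.998 at 0 h and -0.39 at 4 h, and 9 of the 12 called at 4 h did so in the same direction. Of 57 called higher in WT, 22 kept the sign, the median went from 0.41 to -0.12, and 13 of the 20 called at 4 h were called in the opposite direction. Without KO 4 h replicate 2 the 32 calls became 20 and without KO 4 h replicate 3 they became 18.

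The mitosis and S phase genes called at 0 h kept the KO sign in 17 of 17 cases at 4 h, with a median of -1.25 at 0 h and -0.68 at 4 h, and 2 of them were called, Mki67 (-0.83 ± 0.17, adjusted p = 0.00424) and Ccna2 (-0.80 ± 0.19, adjusted p = 0.0141). The 6 called members of the germinal center list also kept the sign, with medians of -1.28 and -0.83, and 4 were called. Among these 4 were Gm600 (-0.88 ± 0.27, adjusted p = 0.0472) and Cd38, which mouse germinal center B cells lower (-0.65 ± 0.07, adjusted p = 2.11e-05). Of the 5 interferon genes, 4 had the opposite sign at 4 h, with medians of -0.40 and 0.36, but 1 was called there, Ly6a (0.40 ± 0.09, adjusted p = 0.0117), and the interaction was called for 2, Igtp and Ly6a. Zbp1 (0.36 ± 0.24, adjusted p = 0.405) and Ifi47 (0.07 ± 0.18, adjusted p = 0.87) did not pass at 4 h. Over all members, the median at 4 h was -0.26 for the mitosis list, -0.44 for the germinal center list and 0.06 for the interferon list.

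The change of the genotype difference between the times was tested as an interaction, in a fit of all 12 libraries that includes the 0 h libraries by which these genes were chosen. The fit took the 12 libraries as independent. Deviations of same-numbered 0 h and 4 h libraries correlated across genes at 0.141, 0.108 and 0.098 in WT and at -0.054, 0.1203 and 0.151 in KO. For libraries of unlike number they ran from -0.092 to -0.006 in WT and from -0.161 to 0.060 in KO. Any sharing of mice was ignored. The interaction was called for 47 of 111 genes (6.39% of all genes), 38 of 57 called higher in WT and 9 of 54 called higher in KO. Klf2, higher in WT at 0 h, was higher in KO at 4 h (log2 fold change -0.59 ± 0.07, interaction -1.02 ± 0.09, adjusted p = 1.85e-07). Cd83 turned the other way, from higher in KO to higher in WT (0.68 ± 0.08, interaction 0.98 ± 0.12, adjusted p = 6.62e-06). Among mitosis genes the interaction was called for Cenpe, whose difference at 4 h was -0.06 ± 0.16 (interaction 1.10 ± 0.23, adjusted p = 0.00437). Gpr174 remained higher in WT at 4 h with a smaller difference (0.56 ± 0.07, interaction -0.47 ± 0.09, adjusted p = 0.00208).

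**Figure D5:**
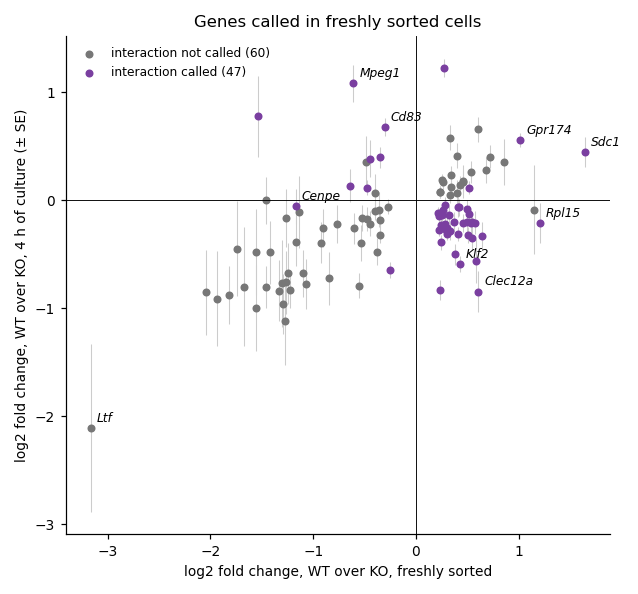
Log2 fold change of WT over KO after 4 h of culture (vertical axis, error bars SE, n = 3 per genotype) against the same value in freshly sorted cells (horizontal axis) for the 107 called genes tested at both times, purple where the interaction was called (47) and grey where it was not (60). Genes on the left, higher in KO at 0 h, mostly stay below 0 at 4 h, and most genes on the right lie below 0 at 4 h.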

How the data were processed

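RNA was sequenced from 12 libraries, of which the 6 freshly sorted ones were compared. Per the study's methods and the labels, the authors aligned reads to mm10 with STAR and deposited raw counts per gene from HTSeq; versions, gene annotation and strand setting are not given in the sources used here, so reads of overlapping antisense genes cannot be told apart. Genes were filtered with filterByExpr, scaled by TMM and tested with the quasi-likelihood test of edgeR 4.0.16 in R 4.3.3 (genotype as the only term, 6 libraries, Benjamini-Hochberg adjustment over 11345 genes, threshold 0.05). Fold changes are WT over KO, with SEs from the F statistic. "Called" means past that threshold. All adjusted p-values come from edgeR. The 4 h libraries were tested in the same way, and the interaction in 1 fit of all 12. Libraries are labelled as separate replicates, and the study gives 3 mice per genotype over both times together. DESeq2 1.42.0 was an alternative. Gene symbols are those of the tables, matched to RefSeq GRCm38.p6 by symbol (12094) or synonym (1381), with 99 not matched. Named genes were Gpr174, its neighbors within 2 Mb, the 12 largest called differences in each direction, up to 6 called members of each list, the most abundant markers, and genes the study names. The members and lists were chosen with earlier results of these data known. Intervals cover counting error only. Some members of the lists are counted but their own results are not reported here.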

Additional observations from a re-analysis of the deposited data

Results flagged for a closer look

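For 18 of the named genes called at 0 h, the difference between WT and KO changed between freshly sorted and cultured cells by the interaction test in edgeR. Values are the log2 fold change of WT over KO at 4 h minus that at 0 h. The change was toward WT for Mpeg1 (1.68), Cenpe (1.10), Cd83 (0.98), Igtp (0.83) and Ly6a (0.74), all higher in KO at 0 h. It was toward KO for Clec12a (-1.46), Rpl15 (-1.43), Sdc1 (-1.20), 8430410K20Rik (-1.16), Klf2 (-1.02), Rdh14 (-0.98), Atf1 (-0.91), Samd9l (-0.89), C230091D08Rik (-0.79), Ahnak (-0.65), Cd24a (-0.58) and Gpr174 (-0.47), all higher in WT at 0 h. Cd38, higher in KO at 0 h, moved further toward KO (-0.40). These genes were chosen by their 0 h values, which also enter the interaction.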

How the results depend on the processing

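Leaving out 1 library gave 26 to 161 called genes, 13 to 86 higher in WT and 13 to 75 higher in KO, with 8 to 15 of the mitosis list, 0 to 4 of the S phase list, 1 to 6 of the germinal center list and 0 to 9 of the interferon list called higher in KO. Leaving out 1 cultured library gave 18 to 34 of the 0 h genes called at 4 h, 8 to 19 in the same direction, and leaving out any of the 12 gave 43 to 48 called in the interaction. Scaling by library totals called 37 genes higher in WT, and DESeq2 called 86 higher in WT. A filter of at least 5 CPM in 3 libraries left 0 S phase genes called, for which Mcm10 was no longer tested. All 4 groups in 1 fit called 36 genes higher in KO and 0 of the interferon list, and thinning called 3 of that list. The cause was not tested for these except where stated. With a replicate block 138 genes and 2 S phase genes were called. The deviations of same-numbered WT and KO libraries correlated at -0.027, -0.061 and 0.058, and those of WT replicate 1 and KO replicate 2 at 0.111. With 3 libraries per genotype these values cannot decide whether same-numbered mice were littermates or were processed together. Between 0 h and 4 h, same-numbered libraries of a genotype correlated at -0.054 to 0.151, and a replicate block within genotype called 50 genes in the interaction in place of 47. Over named genes and alternatives, 1005 values kept direction and side of the threshold, 183 lost and 12 gained a call, and 0 changed sign. KO libraries were shallower, but for Gstt1 and Ltf, genes of a few reads, the lower values were in the deeper WT libraries.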
